A study of Mus musculus with 32 samples.

Results

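The tumour macrophage module is a set of 39 named genes that are commonly used to mark macrophages and their states in tumours. Members are given by gene name, and the list was drawn up with earlier results of these data known. Of the 39 listed genes, 38 were matched to a probe, among 20145 genes matched on the arrays in all. Cd68 was not analysed here. The members were sorted by role into 9 pan-macrophage genes, 6 genes of C1q-expressing mature tissue macrophages, 10 resident-like genes, 5 inflammatory and monocyte-derived genes, 4 genes of alternative activation and 4 lipid-associated genes.

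The samples were mouse mammary tumours grown from 4T1-Luc, a luciferase-tagged line of the 4T1 breast carcinoma, placed into mammary fat pads when the host mice (Balb/C, female) were 8 weeks old. After 1 week of establishment, mice received sunitinib at 40 mg/kg in PBS with 3.72% DMSO, or that vehicle alone. Sunitinib is an inhibitor of several receptor tyrosine kinases, among them the VEGF receptors and the CSF1 receptor. At a tumour size of 1300 mm3, digested tumours were separated with beads against PECAM-1, an adhesion molecule of endothelial cells that some leukocytes also carry. The bead-bound cells are the EC fraction and the rest of the digest is the bulk fraction. Each fraction was measured in 4 vehicle mice, in 4 sunitinib mice labelled sensitive up to day 8 and in 4 labelled resistant, with both fractions taken from the same 12 mice. Bulk samples were also measured from tumours resected at day 9 and from tumours resected at 600 mm3, with 2 sunitinib and 2 vehicle mice at each. All tumours came from 1 transplanted line, so the groups share the tumour genotype and the strain. All tissue passed through the same enzymatic digest, which contained actinomycin D.

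Macrophages arise from embryonic progenitors or from blood monocytes that enter a tissue through receptors such as Ccr2. Csf1, acting on its receptor Csf1r, keeps them alive, and the transcription factor PU.1, encoded by Spi1, sets much of their gene programme. Macrophages lying along vessels often express Mrc1, Folr2 and Lyve1. C1q, the scavenger receptors and the phagocytic receptor Mertk serve the clearance of dead cells, Arg1, Chil3 and Retnla respond to interleukin-4 signalling through STAT6, and Trem2, Apoe, Gpnmb and Spp1 mark macrophages that handle lipid in tumours.

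A level is given as log2 of the background-subtracted signal minus the 75th percentile of that array on the same scale, and a difference of 1 is a 2-fold change. The mice carry the numbers of the labels. A called difference is one with a Benjamini-Hochberg adjusted p under 0.05 from limma, a linear model with a moderated spread that was fitted over all genes tested, and every adjusted p below is from that fit. Of the 38 members, 32 were well above background on all 32 arrays. The 6 others are Timd4, Cd163, Vsig4, Cd5l, Marco and Retnla. Levels of different genes come from different probes and were not set against each other.

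The arrays were hybridised on 4 slides. One held the EC samples of sensitive and vehicle mice, another all 8 samples of resistant mice, another the bulk samples of sensitive and vehicle mice, and the last the 8 smaller tumours, so that resistance and tumour size cannot be told apart from slide. The 2 fractions of vehicle and of sensitive mice also lay on different slides, so that in these 8 mice fraction cannot be told apart from slide either, while the fractions of the 4 resistant mice shared a slide. On the EC arrays, resistant mice had 46.07 to 52.85% of probes well above background, sensitive mice 79.86 to 86.42% and vehicle mice 80.34 to 82.18%. Of the bulk arrays of resistant mice, that of mouse 2 stood apart with 83.18%, and the lowest of its group had 55.3%. The EC fraction carried its defining markers: all 13 endothelial markers were well above background on every EC array, with a mean level of 2.33 to 3.85. On the bulk arrays at 1300 mm3 that mean level was -3.36 to -0.73, except for vehicle mouse 3, whose bulk array had 1.24. Counts of called members that rest on the bulk arrays of resistant mouse 2 or vehicle mouse 3 are given with and without them. Some counts from fits with an array left out stand without the share of all genes called. Such counts are not read as particular to the members. In tissue of mixed cells, fewer cells of a type and less RNA per cell cannot be told apart.

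The first question was how the module was distributed between the PECAM-1 selected cells and the rest of the same tumour. The module was higher in the EC fraction: 32 members were called higher and 2 lower, with a median difference of 1.80, beside a median of -0.06 over all 18278 genes tested. Of all genes tested, 22.6% were called higher and 29.3% lower. By mouse, 19 members were higher in the EC fraction in all 12 mice and 30 in at least 11 of them. Without vehicle mouse 3, whose bulk array carried endothelial signal, 31 members were called higher and 2 lower, beside 21.6% and 28.8% of genes. Without resistant mouse 2 these were 32 and 2, beside 33.1% and 32.5% of genes. In a single mouse, between 27 members (vehicle mouse 2) and 36 (sensitive mouse 3) of the 38 were higher in the EC fraction. For these counts by mouse, and for lack of overlap between fractions, the share over all genes was not computed.

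**Figure D1:**
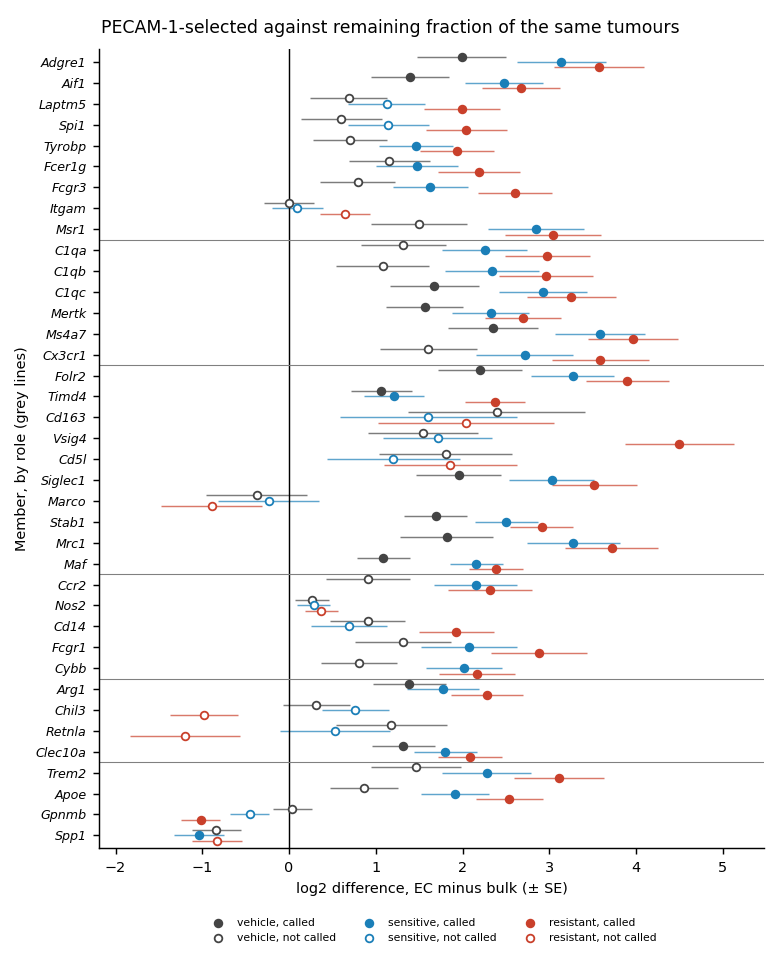
Difference between the EC and the bulk fraction of the same tumours (log2, horizontal axis) for each of the 38 members, in vehicle, sensitive and resistant mice (4 of each). Points are limma estimates with their standard errors and filled points are called; most members lie to the right of 0 in all 3 sets of mice, while Spp1 lies to the left.

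Among the pan-macrophage genes, 8 of 9 were higher in the EC fraction, with a median difference of 1.61. Adgre1 encodes F4/80, an adhesion receptor used to stain mouse macrophages. Its level was 2.69 to 4.98 on the 12 EC arrays and -0.91 to 1.63 on the 12 bulk arrays, so the fractions did not overlap. Within mice the difference had a lowest value of 1.06, a median of 3.04 and a highest value of 4.86. The fit gave 2.90 (SE 0.30, 7.47-fold, adjusted p = 2.15e-05), and a second probe of the gene gave 1.99. Of the other members, Msr1, a scavenger receptor for modified lipoproteins, differed by 2.46 (SE 0.32) and Aif1, the cytoskeletal protein Iba1, by 2.19 (SE 0.26), each higher in the EC fraction in 12 of 12 mice. The Fc receptor Fcgr3 and the signalling adaptors Fcer1g and Tyrobp differed by 1.68, 1.61 and 1.37. Laptm5, a lysosomal protein of blood cells, and Spi1, the gene of PU.1, had the smallest called differences of this role, 1.27 (SE 0.26) and 1.26 (SE 0.27). The member of this role that was not called is Itgam, the integrin chain CD11b that neutrophils and monocytes carry as well. Its difference was 0.25 (SE 0.17, adjusted p = 0.237), it was higher in the EC fraction in 7 of 12 mice, and its other probes gave 0.97 and 0.42, the first of them called (adjusted p = 0.00258 over all probes).

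All 6 genes of C1q-expressing mature macrophages were higher in the EC fraction, with a median difference of 2.41. Ms4a7 is a membrane protein found on macrophages outside the blood. Its level was 3.30 to 5.95 on the EC arrays and -0.32 to 2.83 on the bulk arrays, again without overlap. Within mice the difference ran from 1.16 to 5.35 with a median of 3.59, and the fit gave 3.30 (SE 0.30, 9.85-fold, adjusted p = 1.07e-05), the largest of any member. Cx3cr1, the receptor of fractalkine, overlapped between fractions, with 2.80 to 6.18 on the EC arrays and 0.58 to 3.51 on the bulk arrays, and differed by 2.64 (SE 0.32, adjusted p = 6.49e-05). It was higher in the EC fraction in 11 of 12 mice, the exception being vehicle mouse 3. Mertk, a receptor for the uptake of dying cells, differed by 2.19 (SE 0.26) and was higher in all 12 mice.

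C1qa, C1qb and C1qc encode the chains of the C1q protein, the first component of the classical complement pathway. They lie side by side on chromosome 4 of build GRCm38.p6, C1qb at 136880126 to 136886200, C1qc at 136889801 to 136892936 and C1qa at 136895916 to 136898844. Their differences were 2.18 (SE 0.28), 2.13 (SE 0.31) and 2.62 (SE 0.30) in the order C1qa, C1qb and C1qc, and all passed the test. C1qa and C1qc were higher in the EC fraction in all 12 mice and C1qb in 11.

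The promoters of C1qb and C1qc are shown because these neighbours were both called higher in the EC fraction. C1qa was called higher too, but its promoter was not among the sequences available. Each sequence runs 5′ to 3′ on the strand of the gene, from 250 bases before the RefSeq start to 50 after it (build GRCm38.p6). For C1qc the start used lies just inside the gene span given above, so its positions do not count from the end of that span. Capitals mark matches on either strand to a PU.1 core (GAGGAA), a C/EBP motif (TTNNGNAA), a STAT6 motif (TTC and GAA with 4 bases between them) or part of a Maf motif (TGCTGAC).
C1qb, chr4:136886151-136886450, minus strand: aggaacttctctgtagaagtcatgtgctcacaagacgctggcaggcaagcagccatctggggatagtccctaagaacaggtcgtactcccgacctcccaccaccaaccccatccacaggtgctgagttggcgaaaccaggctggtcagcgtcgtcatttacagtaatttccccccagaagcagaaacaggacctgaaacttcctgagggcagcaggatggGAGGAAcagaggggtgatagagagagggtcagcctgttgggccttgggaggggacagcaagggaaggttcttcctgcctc
C1qc, chr4:136892865-136893164, minus strand: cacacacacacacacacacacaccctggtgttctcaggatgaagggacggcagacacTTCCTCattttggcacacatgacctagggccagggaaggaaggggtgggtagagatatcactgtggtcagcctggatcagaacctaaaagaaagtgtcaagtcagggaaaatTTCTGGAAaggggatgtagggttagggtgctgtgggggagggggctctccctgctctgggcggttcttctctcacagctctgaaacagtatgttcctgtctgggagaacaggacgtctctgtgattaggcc
The C1qb window holds 1 PU.1 core, which begins at -30 from the start. The C1qc window holds a PU.1 core at -193 on the opposite strand and a C/EBP match at -81. The PU.1 core is common: it occurs in 28.3% of the 32851 promoters of the table and in 19 of the 28 members with a promoter there. The C/EBP letters occur in 40.7% of all promoters and in 14 of those 28, the STAT6 letters in 6.95% and 3, and the Maf letters in 4.67% and 3. A match describes letters in the window, and no binding was measured.

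Of the 10 resident-like genes, 9 were higher in the EC fraction, with a median difference of 2.19. Folr2, the folate receptor of perivascular macrophages, had levels of 0.16 to 3.82 on the EC arrays and -3.05 to -0.04 on the bulk arrays, and differed by 3.12 (SE 0.28, 8.71-fold, adjusted p = 9.38e-06). Mrc1, the mannose receptor CD206, had 2.80 to 5.53 against -0.94 to 2.28, a difference of 2.94 (SE 0.31, adjusted p = 2.49e-05). Siglec1, the sialic acid receptor CD169, had 0.50 to 3.81 against -2.38 to 0.45, a difference of 2.83 (SE 0.28, adjusted p = 1.79e-05), while a second probe of Siglec1 gave 1.26 (SE 0.41, adjusted p = 0.034 over all probes). With the probe used, these 3 genes showed no overlap between fractions, and each was higher in all 12 mice. Vsig4, a complement receptor, differed by 2.58 (SE 0.36), the scavenger receptor Stab1 by 2.37 (SE 0.21), the transcription factor Maf by 1.88 (SE 0.18) and the phosphatidylserine receptor Timd4 by 1.55 (SE 0.20). Stab1 and Maf were higher in 12 of 12 mice, Vsig4 and Timd4 in 11. Cd163 and Cd5l were not well above background on any bulk array of vehicle mice, and on 10 and 8 of the 12 bulk arrays in all. With the bulk side bounded, their differences were 1.77-fold for Cd163 and 2.25-fold for Cd5l. On the EC side Cd163 was also not well above background in resistant mice 1 and 2, and Cd5l in resistant mouse 1. Those EC values stayed as measured, so neither fold is a strict lower limit. In a bound, each array of the lower group on which the gene was not well above background takes the higher of its own value and the lowest signal well above background on that array.

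All 5 inflammatory and monocyte-derived genes were higher in the EC fraction, with a median difference of 1.67. The largest difference was that of Fcgr1, the high-affinity receptor for immunoglobulin G, with 2.09 (SE 0.32, adjusted p = 0.00027), followed by the chemokine receptor Ccr2 with 1.79 (SE 0.28), the oxidase subunit Cybb with 1.67 (SE 0.25) and Cd14 with 1.18 (SE 0.25). The smallest was that of Nos2, the inducible nitric oxide synthase, with 0.31 (SE 0.11, adjusted p = 0.0388). Nos2 was higher in the EC fraction in 10 of 12 mice.

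The alternative activation genes split. Arg1, the arginase that uses up the substrate of Nos2, was higher in the EC fraction by 1.81 (SE 0.24) and the lectin Clec10a by 1.74 (SE 0.21), both in all 12 mice. Chil3, the secreted chitinase-like protein Ym1, differed by 0.03 (SE 0.23, adjusted p = 0.917) and was higher in 6 of 12 mice. Retnla, the secreted protein Fizz1, differed by 0.17 (SE 0.37, adjusted p = 0.734) and was higher in 7. Among the resident-like genes, Marco, a scavenger receptor that binds bacteria and particles, was likewise not called, with -0.50 (SE 0.34, adjusted p = 0.242) and higher levels in 4 of 12 mice.

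The 4 lipid-associated genes divided by sign. Trem2, a receptor for lipids, and Apoe, a lipid carrier, were higher in the EC fraction by 2.28 (SE 0.30) and 1.77 (SE 0.23). Spp1, the secreted matrix protein osteopontin that carcinoma cells also make, was lower in the EC fraction by -0.90 (SE 0.17, adjusted p = 0.000892) and was higher there in 0 of 12 mice. Gpnmb, a glycoprotein of lysosomes and melanosomes, was lower by -0.48 (SE 0.13, adjusted p = 0.00908) and was higher in the EC fraction in 2 of 12 mice. All 10 tumour epithelial markers were lower in the EC fraction too, with a median of -1.40, and the part of that difference in Spp1 and Gpnmb was not tested.

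Markers of other cells did not all follow the module. The endothelial markers were higher by a median of 5.15, with 12 of 13 called, while 5 of 11 neutrophil markers and 6 of 8 T and NK cell markers were lower, and 1 of 7 eosinophil markers was higher. Of 15 macrophage growth factors, attractants and their receptors, 10 were higher and 4 lower. Csf1r was higher by 2.22 (SE 0.27, adjusted p = 6.33e-05), and the monocyte attractants Ccl12, Ccl7 and Ccl2 by 2.68, 2.47 and 1.67. Csf1, the ligand of Csf1r, was lower in the EC fraction by -1.01 (SE 0.16, adjusted p = 0.000305).

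Of 13 macrophage transcription factors 7 were higher, among them Pparg at 2.19 and Cebpa at 2.13, and 4 were lower. Of 12 further lipid-associated genes 10 were higher, led by Fabp4 (5.48) and Cd36 (3.95), which endothelial cells express as well, and by the cholesterol exporter Abca1 (2.57). Of 11 further inflammatory products 10 were higher, led by Il6 (2.73), Cd86 (2.35) and Il1a (1.73). Of 8 further resident-like genes 6 were higher, led by Lyve1 (3.77), which lymphatic endothelium shares, Fcna (2.63) and Gas6 (2.32).

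The difference between fractions was also taken within each treatment, a comparison added after the data were seen. In vehicle mice 13 members were called higher and 0 lower, beside 12% and 15.1% of all genes, with a median of 1.25. Those 13 were 2 of 9 pan-macrophage genes, 3 of 6 C1q and mature genes, 6 of 10 resident-like genes and 2 of 4 alternative activation genes. The largest were Ms4a7 with 2.35 (SE 0.52, adjusted p = 0.00847) and Folr2 with 2.20 (SE 0.48, adjusted p = 0.00807). In sensitive mice 25 were higher and 1 lower (14.5% and 21.2% of genes), with a median of 1.86, and Ms4a7 again differed most, by 3.58 (SE 0.52). In resistant mice, whose fractions lay on the same slide, 29 were higher and 1 lower (13.5% and 15.5% of genes), with a median of 2.38. Without resistant mouse 2 these were 31 and 2, beside 22% and 19% of genes. In resistant mice Vsig4 was at least 16.5-fold higher in the EC fraction (adjusted p = 0.00126), with its probe well above background on 1 of 4 bulk arrays, and Ms4a7 differed by 3.97 (SE 0.52, adjusted p = 0.00104).

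The count in vehicle mice leaned on single animals. It was 8 without vehicle mouse 2, 3 without mouse 4 and 2 without mouse 5. The share of all genes called higher fell as well, from 12% to 8.67%, 5.89% and 5.83% in that order. Without mouse 3 the count was 15, beside 9.51% of genes called higher. Vehicle mouse 3 had the smallest difference of the 12 mice for Adgre1 (1.06), Ms4a7 (1.16), Folr2 (0.65) and Mrc1 (0.52).

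**Figure D2:**
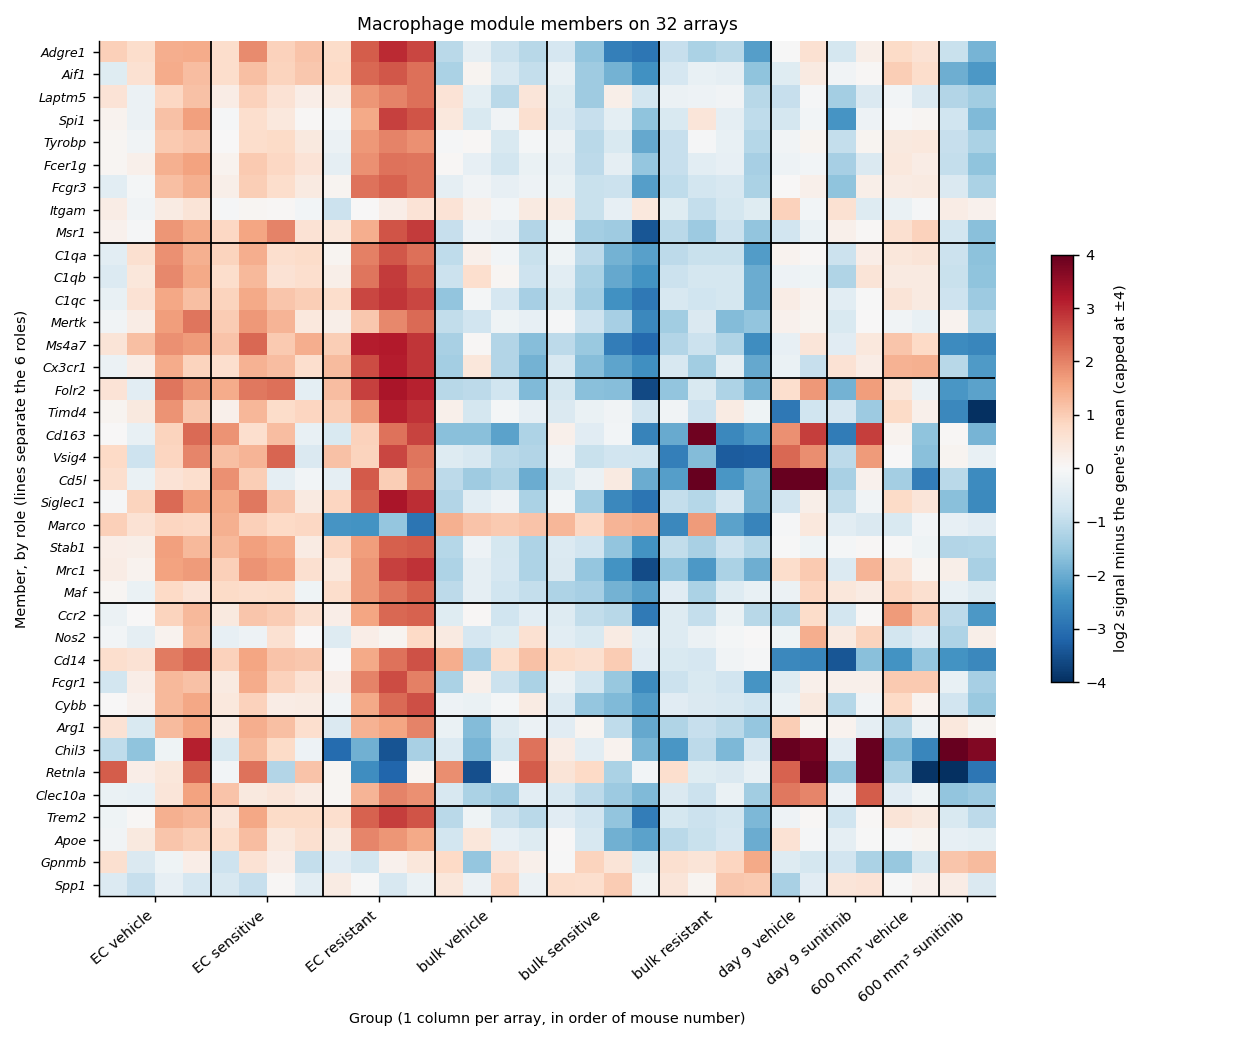
Level of each of the 38 members (rows, sorted by role, lines between roles) on each of the 32 arrays (columns, sorted by group), as log2 difference from the mean of that gene over all arrays, with colour capped at 4 in both directions. The EC columns are warm over most rows, the bulk columns at 1300 mm3 are mostly cool, and EC resistant mouse 1 is paler than the rest of its group.

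The second question was whether the module in the EC fraction differed between treated and vehicle tumours. In sensitive mice no member was called against vehicle, and limma called 0% of the 17944 genes tested. At an unadjusted p under 0.05 there were 971 genes and 0 members. The median difference over members was 0.15, with 26 of 38 above 0. The smallest p values above 0 were those of Cx3cr1 (0.38, SE 0.44), C1qc (0.37, SE 0.48) and Marco (0.19, SE 0.25), and below 0 those of Itgam (-0.25, SE 0.26), Retnla (-0.85, SE 0.91) and Spi1 (-0.40, SE 0.58), all with an adjusted p of 1.

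In resistant mice 6 members rose and 3 fell against vehicle, beside 19.2% of all genes called higher and 27.1% lower. The median over members was 0.97, beside 0.03 over all genes, and 32 of 38 members lay above 0. By role, 1 of 9 pan-macrophage genes, 2 of 6 C1q and mature genes, 2 of 10 resident-like genes and 1 of 4 lipid-associated genes rose, while 1 resident-like gene and 2 of 4 alternative activation genes fell. The 5 inflammatory and monocyte-derived genes were not called, with a median of 0.80. The member counts rested on EC resistant mouse 1: without it 26 members were higher and 2 lower, beside 22.4% and 28.7% of genes. Among all genes, 3440 were called higher and 4866 lower. After normexp background correction, which moved the median of all genes to 0.24, 72.8% of calls were higher, and with quantile scaling 50% were. The median over members was 0.86 after normexp, 0.63 with quantile scaling and 0.61 with the authors' deposited values. In that order, members called higher and lower were 7 and 2 (29.3% and 10.9% of genes), 5 and 1 (17.8% and 17.8%) and 5 and 2 (17.6% and 16.5%).

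Cx3cr1 had levels of 2.80, 3.33, 4.53 and 3.93 in the EC fraction of vehicle mice and of 4.29, 5.67, 6.18 and 5.91 in that of resistant mice. The groups overlapped through resistant mouse 1 and vehicle mouse 4. The difference was 1.86 (SE 0.43, 3.64-fold, adjusted p = 0.00423), and a second probe gave 2.12. Maf, a transcription factor of resident macrophages, had 0.96, 0.62, 1.67 and 1.43 in vehicle mice and 1.58, 2.64, 3.01 and 3.25 in resistant mice. Resistant mouse 1 was again the low array, below vehicle mouse 4. Maf rose by 1.45 (SE 0.37, 2.73-fold, adjusted p = 0.0067).

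C1qc had 4.78, 5.64, 6.61 and 6.27 in vehicle mice and 5.79, 7.75, 7.92 and 7.74 in resistant mice, and rose by 1.47 (SE 0.48, adjusted p = 0.0255). The other C1q chains were not called, with 0.84 for C1qa (adjusted p = 0.229) and 1.06 for C1qb (adjusted p = 0.161). Trem2 rose by 1.43 (SE 0.49, adjusted p = 0.0321), with 4.23 in resistant mouse 1 and 5.92 to 6.32 in the others, against 3.39 to 4.97 in vehicle mice. Timd4 rose by 1.34 (SE 0.49, adjusted p = 0.0405). Aif1 rose by 1.23 (SE 0.44, adjusted p = 0.0374). For all 4 genes the array of resistant mouse 1 was the lowest of its group and lay within the range of vehicle mice.

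Marco had -1.54, -1.92, -1.63 and -1.67 in vehicle mice, -1.07, -1.54, -1.71 and -1.68 in sensitive mice and -4.85, -4.91, -4.06 and -5.41 in resistant mice. The resistant arrays lay apart from all the others. It fell at least 5.85-fold (adjusted p = 9.59e-07), a bound because the probe was well above background on 1 of the 4 EC arrays of resistant mice. In the bulk fraction of the same mice it had -5.07, -0.80, -4.66 and -5.14, and the high value belongs to the array of mouse 2 that stood apart. Both fractions of resistant mice shared a slide, which no other group used.

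Chil3 had 0.52, -0.09, 1.35 and 4.65 in vehicle mice and -1.55, -0.40, -1.92 and 0.24 in resistant mice. Vehicle mouse 5 was far above the rest, and the groups overlapped. It fell by 2.52 (SE 0.90, adjusted p = 0.0369). Retnla had 1.00, -1.17, -0.98 and 0.92 in vehicle mice and -1.36, -3.90, -4.60 and -1.34 in resistant mice, without overlap. It fell by 2.74 (SE 0.91, adjusted p = 0.0269), with 2 of 4 resistant arrays well above background.

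The promoters of Marco, Chil3 and Retnla are shown because these were the members that fell in the EC fraction of resistant mice. Capitals mark the same motifs as above.
Marco, chr1:120504975-120505274, minus strand: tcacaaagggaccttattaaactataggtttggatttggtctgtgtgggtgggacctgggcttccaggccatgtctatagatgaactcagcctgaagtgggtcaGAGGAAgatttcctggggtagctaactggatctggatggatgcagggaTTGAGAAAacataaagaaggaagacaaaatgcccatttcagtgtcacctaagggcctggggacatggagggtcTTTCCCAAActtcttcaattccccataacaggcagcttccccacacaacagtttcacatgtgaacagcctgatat
Chil3, chr3:106167515-106167814, minus strand: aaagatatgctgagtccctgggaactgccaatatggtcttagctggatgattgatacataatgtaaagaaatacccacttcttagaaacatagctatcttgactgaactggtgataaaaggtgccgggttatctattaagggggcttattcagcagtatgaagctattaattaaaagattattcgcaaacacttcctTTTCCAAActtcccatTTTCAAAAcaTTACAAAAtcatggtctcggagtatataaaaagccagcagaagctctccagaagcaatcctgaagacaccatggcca
Retnla, chr16:48842359-48842658, plus strand: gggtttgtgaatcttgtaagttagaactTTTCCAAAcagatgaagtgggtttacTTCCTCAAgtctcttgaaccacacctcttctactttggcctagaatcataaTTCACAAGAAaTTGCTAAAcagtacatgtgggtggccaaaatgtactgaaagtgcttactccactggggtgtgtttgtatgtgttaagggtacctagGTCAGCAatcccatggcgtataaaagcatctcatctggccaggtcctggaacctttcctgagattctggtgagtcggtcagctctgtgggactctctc
Marco holds a PU.1 core at -146 and 3 C/EBP matches, at -98 and, overlapping each other on the opposite strand, at -25 and -24. Chil3 holds 3 C/EBP matches on the opposite strand, at -53, -37 and -27, and none of the other letters searched. Retnla holds a STAT6 match at -145, a Maf match at -48 on the opposite strand, C/EBP matches on the opposite strand at -222, -196 and -134, and a PU.1 core at -196 that overlaps the second of these.

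**Figure D3:**
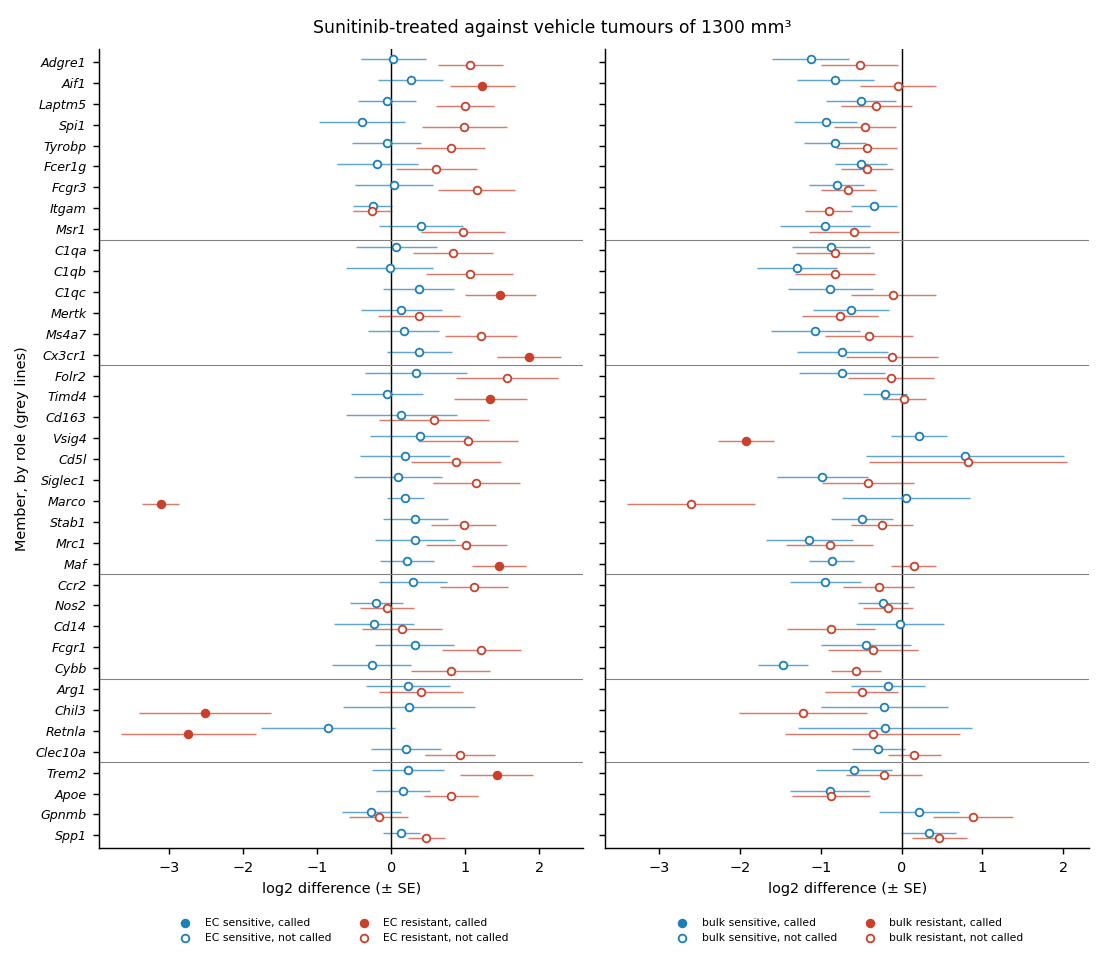
Difference from vehicle (log2, horizontal axis) for each member in sensitive and in resistant mice, with the EC fraction in one panel and the bulk fraction in the other (4 arrays per group). Points are limma estimates with their standard errors and filled points are called; the resistant EC points lie mostly right of 0, with Marco, Retnla and Chil3 far left, and the bulk points mostly left of 0.

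On some arrays most members lay on one side of the group mean, and on others they were split, as on the bulk arrays of vehicle mice with 16 to 21 of 38 above it. On the EC array of resistant mouse 1, only 2 of 38 members lay above the mean of its group, against 23, 33 and 36 on those of mice 2, 3 and 4. Among the EC arrays of vehicle mice the counts were 7, 0, 34 and 37 for mice 2, 3, 4 and 5. Without EC resistant mouse 1 the median over members was 1.39, and Chil3 had an adjusted p of 0.0735. The number called was 4, 3 and 5 without resistant mice 2, 3 and 4, and 4, 5, 10 and 9 without vehicle mice 2, 3, 4 and 5. Cx3cr1, Maf and Marco passed in each of these 8 fits, and the 6 other called members in 3 or 4 of the 8.

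Beside these members, all 7 eosinophil markers fell in the EC fraction of resistant mice, with a median of -4.05. The granule proteins Prg2 and Epx fell at least 68.4-fold and at least 10.1-fold, and the ribonuclease Ear2 fell by 4.11 on the log2 scale. Their mean level was -1.69 to 1.81 on the EC arrays of vehicle mice and -4.62 to -3.55 on those of resistant mice, where Epx and Il5ra were well above background on no array. Of 11 neutrophil markers 2 fell, of 13 endothelial markers 2 fell (Cldn5 and Kdr) with a median of -0.11, and of 10 tumour epithelial markers 0 were called, with a median of -0.02. The part of the eosinophil markers or of the slide in the fall of Marco, Chil3 and Retnla was not tested.

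Of 15 growth factors, attractants and receptors, 2 rose and 1 fell. Ccl12 rose by 1.86 and Ccl7 by 1.59, and Csf2, a growth factor of granulocytes and macrophages, fell by 1.90. Csf1r differed by 0.89 (adjusted p = 0.109), Ccl2 by 1.11 (adjusted p = 0.0914) and Csf1 by -0.21 (adjusted p = 0.507). Of 12 further lipid-associated genes 6 rose, led by Fabp5 (0.94), Abcg1 (0.92) and Plin2 (0.87). Of 11 further inflammatory products 3 rose, the interferon-induced Cxcl9 (1.44) and Cxcl10 (1.25) and Cd40 (1.09). Of 7 further resident-like genes tested 3 rose, Cbr2 (1.33), F13a1 (1.09) and Igf1 (0.88), and of 13 transcription factors 1 rose, Nr1h3 (0.76).

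Against sensitive mice, whose EC arrays served as their own group, 4 members were higher and 2 lower in the EC fraction of resistant mice, beside 17.6% and 28.7% of genes. The median was 0.78. Cx3cr1 differed by 1.49 (adjusted p = 0.0152), Timd4 by 1.40 (adjusted p = 0.0341), Maf by 1.24 (adjusted p = 0.0158) and Laptm5 by 1.05 (adjusted p = 0.0462). Marco was at least 6.67-fold lower (adjusted p = 5.93e-07), and Chil3 differed by -2.75 (adjusted p = 0.0251). This comparison shares the resistant arrays with the one against vehicle. Over the 3 mouse numbers that both groups hold, a fit with the mouse number as a replicate block called 25 higher and 2 lower, and it leaves out resistant mouse 1 and sensitive mouse 5. Without resistant mouse 1 alone, 22 were higher and 1 lower, and without resistant mouse 3 or sensitive mouse 4 the number called was 3. The shares of all genes called in the blocked and left-out fits are not given here. Their counts therefore do not set the members apart from other genes. In this comparison 12 of 13 endothelial markers (median -0.86) and 6 of 7 eosinophil markers were lower in resistant mice.

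The third comparison asked the same of the bulk fraction, where 37 members were tested and Cd163 was too dim. Sensitive mice gave no called member against vehicle, with 0% of 16966 genes called, and 1085 genes and 6 members at an unadjusted p under 0.05. Without bulk vehicle mouse 3 the number of members called was 0 as well. The median was -0.63 and 5 of 37 differences lay above 0. Cybb, the catalytic subunit of the phagocyte oxidase, had 0.63, 0.57, 0.77 and 1.19 in vehicle mice and 0.31, -0.70, -0.92 and -1.39 in sensitive mice. These did not overlap, and the difference was -1.47 (SE 0.31, adjusted p = 0.592). Maf differed by -0.86 (SE 0.28, adjusted p = 0.662) and C1qb by -1.29 (SE 0.50, adjusted p = 0.705). Of the 13 endothelial markers 1 lay above 0, with a median of -1.10, but without bulk vehicle mouse 3 the median was -0.04 and 6 lay above 0.

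In the bulk fraction of resistant mice 0 members were called higher and 1 lower against vehicle, beside 2.05% and 5.94% of genes, with a median of -0.41. Vsig4 had -3.06, -3.21, -3.62 and -3.72 in vehicle mice and -5.28, -4.28, -5.89 and -5.84 in resistant mice, without overlap. It fell at least 2.76-fold (adjusted p = 0.00663), a bound because the probe was well above background on 1 of the 4 resistant arrays. Marco differed by -2.60 (SE 0.79, adjusted p = 0.072). Without the bulk array of resistant mouse 2 its difference was -3.64 (SE 0.19, adjusted p = 1.6e-07), and 2 members were lower, while 10.6% of genes were then called higher and 21.9% lower. Without bulk vehicle mouse 3 the number called was 2 as well, and the share of all genes in that fit is not given here.

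Between resistant and sensitive mice, 1 member was higher and 1 lower in the bulk fraction, beside 3.34% and 8.95% of genes, with a median of 0.25. Maf was higher by 1.01 (SE 0.28, adjusted p = 0.0382), with 0.41, -0.41, 0.35 and 0.58 in resistant mice and -0.35, -0.47, -1.01 and -1.30 in sensitive mice. Vsig4 was at least 3.19-fold lower (adjusted p = 0.00267). The count was 4 without the bulk array of resistant mouse 2, and it was 1 without any of resistant mice 1, 3 and 4 or sensitive mice 4 and 5. For these fits the share of all genes called is not given here, so the counts do not set the members apart.

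Whether the treatment differences themselves differed between fractions was tested within mice. For sensitive mice 0% of 18278 genes were called and no member, with 877 genes and 1 member at an unadjusted p under 0.05. The median over members was 0.76 higher in the EC fraction, with 32 of 38 above 0. For resistant mice 0.0109% of genes were called higher and 0.263% lower, and no member, with 3217 genes and 18 members at an unadjusted p under 0.05. The median was 1.31, with 33 of 38 above 0, and the smallest adjusted p was 0.157, for Vsig4 (2.96, SE 0.89) and Gpnmb (-1.05, SE 0.32). Without resistant mouse 2, 0.853% of genes were called higher and 1.48% lower, and again no member. A different response of the 2 fractions was thus not shown for any member.

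The fourth comparison took sunitinib against vehicle in the smaller tumours. Averaged over day 9 and 600 mm3, no member was called and 0% of 17443 genes, with 1744 genes and 21 members at an unadjusted p under 0.05. The median over members was -0.92, beside 0.04 over all genes, and 6 of 38 lay above 0. The smallest p values below 0 were those of Ms4a7 (-1.80, adjusted p = 0.121), Aif1 (-1.47, adjusted p = 0.122) and Cd5l (-2.72, adjusted p = 0.164), and above 0 those of Gpnmb (0.94, adjusted p = 0.217), Spp1 (0.58, adjusted p = 0.547) and Chil3 (1.92, adjusted p = 0.617). Without day 9 sunitinib mouse 2, 6 members were lower. The 2 times were then taken apart, after the data were seen.

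At day 9 no member was called, and 0% of genes, with 1387 genes and 5 members at an unadjusted p under 0.05. The median was -0.42. Cd5l, a secreted scavenger protein of resident macrophages, had 0.53 and 0.75 in vehicle mice and -5.79 and -4.33 in sunitinib mice, where 1 of 2 arrays was well above background. The difference of -5.70 (SE 0.70) had an adjusted p of 0.23. Spp1 differed by 1.39 (adjusted p = 0.608) and Cx3cr1 by 1.02 (adjusted p = 0.618). Of the 38 members 7 were lower in sunitinib mice without overlap, beside 16.1% of all genes. The 2 sunitinib mice differed between themselves, with Chil3 at 1.09 and 6.08, Retnla at -3.00 and 3.96, and a mean eosinophil marker level of -4.24 and -1.07.

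At 600 mm3, 6 members fell and 1 rose under sunitinib, beside 1.13% of genes called lower and 0.51% higher. The median was -1.23, beside 0.06 over all genes. Ms4a7 had 3.88 and 3.58 in vehicle mice and 0.27 and 0.16 in sunitinib mice, and fell by 3.52 (SE 0.38, 11.4-fold, adjusted p = 0.0154). Cx3cr1 had 4.42 and 4.45 against 1.94 and 0.77, and fell by 3.08 (SE 0.41, adjusted p = 0.0287), with -3.09 for its second probe. Both are genes of mature tissue macrophages, and the sunitinib arrays lay below both vehicle arrays in each.

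Aif1 fell by 2.95 (SE 0.32, adjusted p = 0.0158), Siglec1 by 2.73 (SE 0.47, adjusted p = 0.0466), the scavenger receptor Msr1 by 1.98 (SE 0.34, adjusted p = 0.0473) and C1qc by 1.56 (SE 0.28, adjusted p = 0.0493). A second probe of Siglec1 differed by -0.41 (SE 0.30, adjusted p = 0.63 over all probes), where the probe used had an adjusted p of 0.0776. Gpnmb had -2.86 and -2.04 in vehicle mice and -0.23 and -0.07 in sunitinib mice, and rose by 2.30 (SE 0.32, adjusted p = 0.0314). Chil3 had -0.25 and -1.07 against 5.99 and 5.23, a difference of 6.27 (SE 1.43) that was not called (adjusted p = 0.0943). By role, the fallen members were 3 of 6 C1q and mature genes, 2 of 9 pan-macrophage genes and 1 of 10 resident-like genes. In all, 24 of 38 members were lower in both sunitinib arrays than in both vehicle arrays, beside 23% of all genes. With 2 arrays a group, leaving out any of the 4 left 0 or 1 member called.

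**Figure D4:**
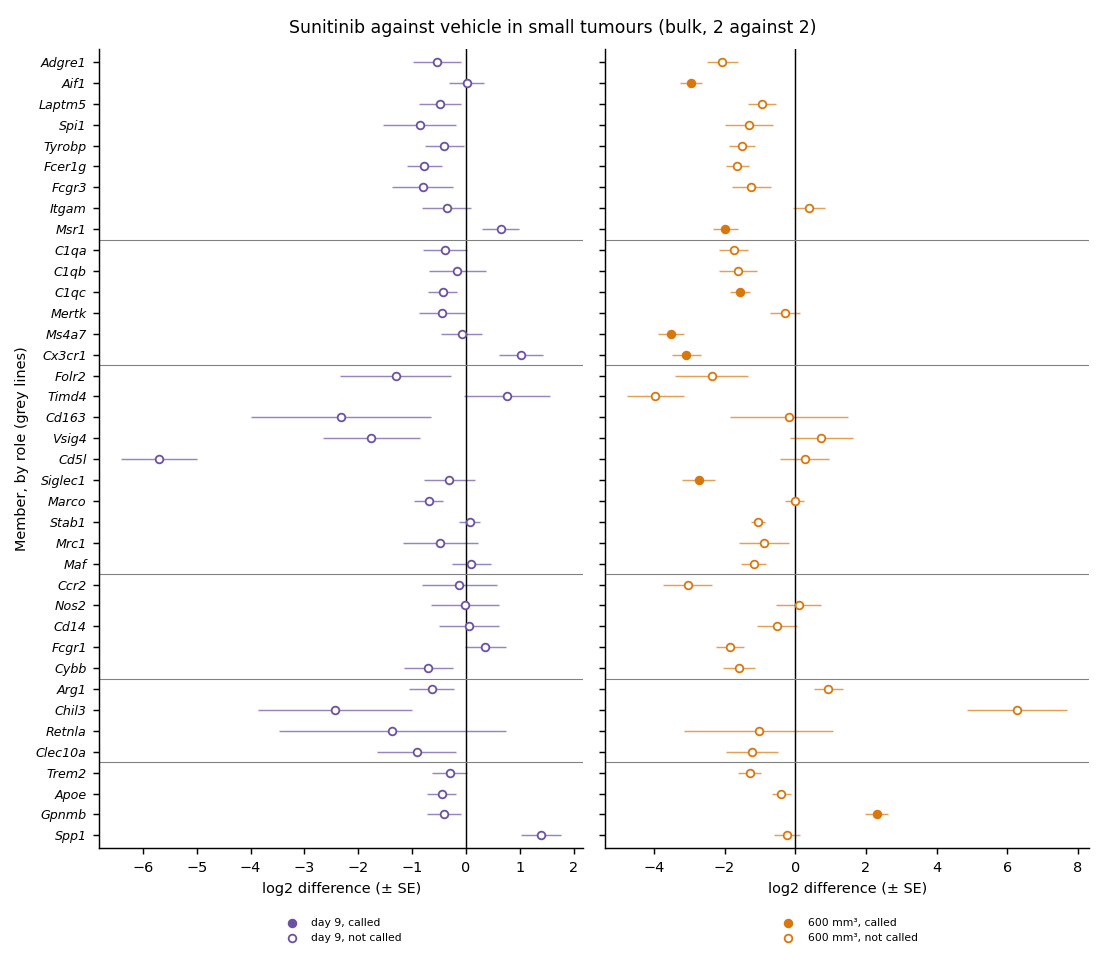
Difference of sunitinib from vehicle (log2, horizontal axis) for each member at day 9 and at 600 mm3 (bulk samples, 2 arrays per group). Points are limma estimates with their standard errors and filled points are called; at 600 mm3 most members lie left of 0, with Ms4a7 at -3.52, while Chil3 (6.27, not called) and Gpnmb (2.30) lie to the right.

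Other cell markers moved in the same tumours. At 600 mm3, 4 of 13 endothelial markers fell, with a median of -2.07, among them Esam (-2.64), Cdh5 (-2.41) and Robo4 (-2.13), and the mean endothelial level was 0.37 and 0.97 in vehicle mice and -1.33 and -1.07 in sunitinib mice. Itgax, the integrin chain CD11c of dendritic cells and some macrophages, fell by 3.95, Cd3d by 1.79 and Treml4 by 1.46. They are single genes from lists of 9 dendritic cell, 8 T and NK cell and 6 monocyte markers. In that order, the mean level of each list was -2.44, -0.69 and -1.51 in sunitinib mice, against -0.84, 0.46 and -0.29 in vehicle mice. Tumour epithelial markers had a median of -0.01 with 0 of 10 called. Csf1r differed by -1.38 (adjusted p = 0.109) and Csf1 by -0.21 (adjusted p = 0.8). The part of the endothelial difference in that of the members was not tested.

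The sunitinib difference at 600 mm3 minus that at day 9 had a median of -0.87 over members. It was called for no member, beside 0.132% of genes called higher and 0.0344% lower, with 2692 genes and 17 members at an unadjusted p under 0.05. The smallest adjusted p was that of Cx3cr1, 0.0718, with -4.10 (SE 0.58), and the sign of its difference was opposite at the 2 times. Without day 9 sunitinib mouse 2 or day 9 vehicle mouse 2 the number called was 1.

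Between 600 mm3 and day 9, averaged over treatment, 0 members were higher and 2 lower, beside 1.59% and 2.74% of genes, with a median of -0.22. Cd5l was 13.6-fold lower with the 600 mm3 side bounded (adjusted p = 0.0105), and its 4 levels at 600 mm3 lay between -7.27 and -5.57. At day 9 it had 0.53 and 0.75 in vehicle mice but -5.79 and -4.33 in sunitinib mice. The value of -5.79 lay within the range at 600 mm3. It was not well above background and stayed as measured, so the fold is no strict lower limit. Clec10a was lower by -2.48 (SE 0.52, adjusted p = 0.0491). Its level in day 9 sunitinib mouse 1, -0.305, lay within its range at 600 mm3, -1.68 to -0.27. The count was 7 without day 9 sunitinib mouse 1 and 1 without either day 9 vehicle mouse or any of the 4 mice at 600 mm3.

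The last comparisons set bulk tumours at 1300 mm3 against the smaller ones, which lay on another slide. Bulk at 1300 mm3 is the digest left after PECAM-1 selection, while the titles of the smaller samples name no fraction. The mean endothelial level averaged -1.77 in vehicle and -2.82 in sensitive mice at 1300 mm3. It ran from -3.135 to 1.236 on these vehicle arrays, with the highest value in mouse 3, and from -3.357 to -1.681 on the sensitive arrays. In vehicle and sunitinib mice it averaged 0.82 and 0.16 at day 9 and 0.67 and -1.20 at 600 mm3. Size cannot be told apart from slide, or from any difference in the removal of PECAM-1 cells, which was not tested. In vehicle mice 2 members were higher and 6 lower, beside 17.6% and 9.93% of genes, with a median of -0.74. In sunitinib mice labelled sensitive, 3 were higher and 3 lower, beside 23.4% and 13.1% of genes, with a median of -0.59. Cd14, the co-receptor for endotoxin, had 6.98, 4.19, 6.22 and 6.68 in vehicle tumours of 1300 mm3 and 2.93, 2.90, 3.13 and 3.96 in the smaller vehicle tumours, without overlap. It was higher by 2.79 in vehicle mice (SE 0.57, adjusted p = 0.0038) and by 3.00 in sunitinib mice (SE 0.57, adjusted p = 0.00159). Marco was higher by 1.28 (SE 0.18, adjusted p = 0.000321) and 1.69 (SE 0.18, adjusted p = 3.69e-05), with -1.46 to -1.10 in vehicle tumours of 1300 mm3 and -3.13 to -2.08 in the smaller ones.

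Of the 6 lower members in vehicle mice, 3 were resident-like. In those mice Cd5l was 5.61-fold lower with the 1300 mm3 side bounded (adjusted p = 0.00162). Its value in 600 mm3 vehicle mouse 4 was not well above background and stayed as measured, so this fold is no strict lower limit. Clec10a differed by -1.80, Ms4a7 by -1.54, Vsig4 by -1.48, Adgre1 by -1.34 and Maf by -1.32, while a second Adgre1 probe gave -0.38 (adjusted p = 0.519 over all probes). Cd5l, Clec10a and Vsig4 were high at day 9 and not at 600 mm3. Cd5l had 0.53 and 0.75 at day 9, -5.85 and -7.27 at 600 mm3 and -6.47 to -5.53 at 1300 mm3. Clec10a had 1.99 and 1.85 at day 9, -0.55 and -0.27 at 600 mm3 and -1.52 to -0.54 at 1300 mm3. Vsig4 had -0.24 and -0.69 at day 9, -2.53 and -4.21 at 600 mm3 and -3.72 to -3.06 at 1300 mm3. In sunitinib mice Timd4 was at least 2.61-fold higher, and Chil3 (-3.52), Mrc1 (-1.95) and Maf (-1.64) were lower. The C1q and mature genes lay below 0 in both, 6 of 6 in vehicle and 6 of 6 in sunitinib mice, with 1 and 0 called.

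**Figure D5:**
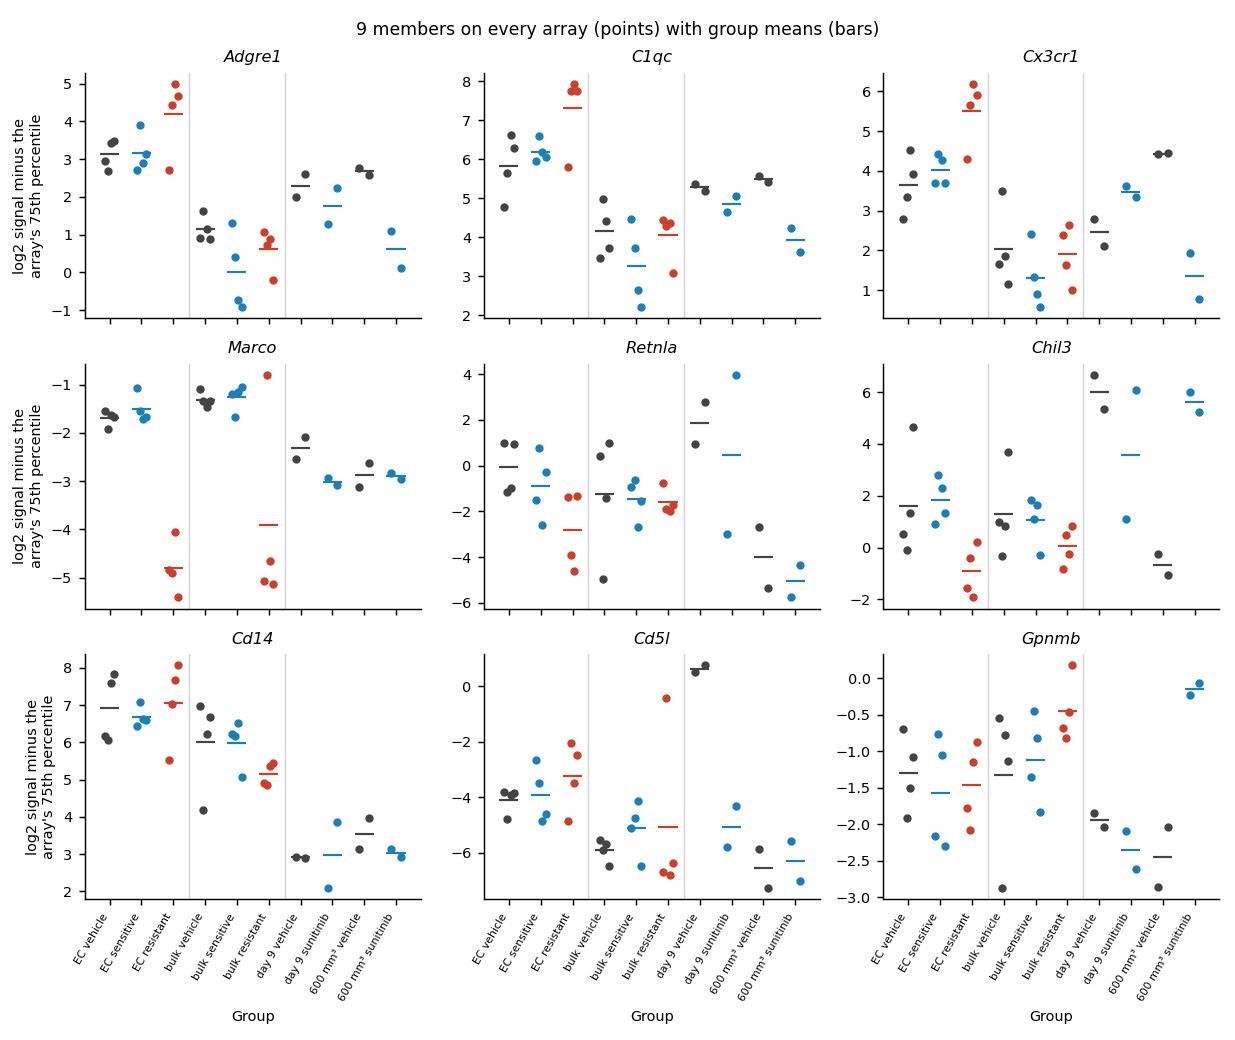
Level (log2, scaled to the 75th percentile of each array, vertical axis) of 9 members on every array, by group, with bars at the group means. Adgre1, C1qc and Cx3cr1 are high in the EC groups, Marco is low on 7 of the 8 arrays of resistant mice, and Cd14 is low in the 4 groups of smaller tumours.

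Beside these, the larger tumours had more of several other markers. Of 11 neutrophil markers 4 were higher in vehicle and 7 in sunitinib mice, and of 13 endothelial markers 7 and 6 were lower. Without bulk vehicle mouse 3, 7 neutrophil markers were higher and 11 endothelial markers lower in vehicle mice. The inflammatory genes Tnf (4.91 and 6.95), Ptgs2 (3.38 and 3.64) and Ccl4 (3.49 and 5.14) and the early response factor Nr4a1 (4.12 and 4.30) were higher in vehicle and sunitinib mice. In vehicle mice 13 members were called without bulk vehicle mouse 3, and 5 without bulk vehicle mouse 2, 4 or 5, day 9 vehicle mouse 2 or 600 mm3 vehicle mouse 3. In sunitinib mice 15 were called without bulk sensitive mouse 2. These counts hold both directions, and the shares of all genes called in the same fits are not given here. Whether the members moved more than other genes is therefore not shown by them. Itgam depended on the probe, with 0.11 in vehicle mice for the probe used and 1.23 and 1.24 for its others.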

How the data were processed

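RNA of 32 samples was hybridised to single-colour Agilent mouse arrays. The deposited scanner files hold processed signal intensities that Agilent Feature Extraction 10.7.3.1 had background-subtracted, per the file headers (the submitters' processing notes name version 9.1). The authors also deposited a table of linear intensity values normalised in R by a method not given in the sources used here, and it served as an alternative on the log2 scale. From the deposited intensities, log2 values were computed and scaled by subtracting the 75th percentile of each array over the spots that are not controls. Of 55681 probes, 26582 were named through RefSeq accessions (GRCm38.p6), giving 20145 genes, and 29099 stayed unnamed. The probe with the highest mean over 32 arrays stood for a gene, and 628 outlier-flagged values were left out.

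Genes well above background on at least 4 arrays (2 for the comparisons with smaller tumours) entered the fits made in limma 3.58.1 (R 4.3.3), with Benjamini-Hochberg adjustment over all genes tested and a threshold of 0.05. EC against bulk used 24 arrays with the mouse as a block, since both fractions come from the same animal. Deviations of the 2 fractions of a mouse correlated at 0.18 to 0.48, except -0.028 in resistant mouse 4. The other fits held the 12 EC arrays, the 12 bulk arrays at 1300 mm3, the 8 small tumours, or 16 bulk arrays for size, with no block. Between resistant and sensitive EC arrays, same-numbered mice, which are different animals, correlated at 0.103, 0.325 and 0.182. Differently numbered mice were not correlated, so these values do not show that a shared number pairs the mice. The blocked counts stand beside that result only as an alternative fit. P-values measure the spread between separately numbered mice. The fit was tested on simulated data.

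The members and the lists were chosen with earlier results of these data known, and so were the tests. Named with values are called members, at most 6 per direction, or with fewer than 3 called the 3 of smallest p per direction; of other lists, at most 3 called genes, with Csf1r, Csf1 and Ccl2 always allowed. Further members and genes were named after their values were seen, to complete a role. The comparisons within a treatment, at day 9, at 600 mm3 and between these times were added after seeing the data. Alternatives were normexp (offset 50) on the median signal, quantile scaling, the deposited table, other filters and probe rules, other sets of arrays, blocks and leaving out each array. Promoters were read from RefSeq (GRCm38.p6) for the 28 of 39 members found there.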

Additional observations from a re-analysis of the deposited data

Results flagged for a closer look

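Over the 228 sets of 4 arrays (a member in a group), 19 held an array whose gap to the nearest other array was too large a part of the range by Dixon's criterion, and chance flags about 1 in 20 such sets. In the EC fraction, resistant mouse 1 was low for Aif1 at 5.59 (the others 7.02 to 7.29), Tyrobp at 5.22, Fcer1g at 5.34, Fcgr3 at 3.51, C1qc at 5.79 and Ms4a7 at 3.77 (the others 5.63 to 5.95). In the bulk fraction, resistant mouse 4 was low for Laptm5 at 1.83, C1qa at 3.13, C1qb at 2.27, C1qc at 3.09, Fcgr1 at -1.31 and Trem2 at 1.77 (the others 2.69 to 2.84).

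The bulk array of resistant mouse 2 was high for Cd163 at -1.40 (the others -7.87 to -7.32), Cd5l at -0.42 (the others -6.81 to -6.38) and Marco at -0.80 (the others -5.14 to -4.66). This is the array with 83.18% of probes well above background. Single sets were C1qb in EC sensitive mouse 3 at 5.56, Maf in EC sensitive mouse 5 at 0.69, Cd5l in EC vehicle mouse 3 at -4.77 and Vsig4 in bulk sensitive mouse 2 at -2.68. What sets these arrays apart was not tested.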

How the results depend on the processing

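The numbers of called members that moved by over 1.5 times follow, and the cause was not tested. Counts under the alternatives of this section stand without the share of all genes called. None of them is read as particular to the members. For bulk resistant against vehicle (1 called) the count was 0 with normexp, 0 with probes well above background on every array, 2 with quantile scaling, 2 with the deposited table and 2 with only the 2 groups compared. For bulk resistant against sensitive (2 called) it was 1 under normexp, quantile scaling, no filter, the stricter filter and only the 2 groups compared. For sunitinib against vehicle in small tumours (0 called) normexp gave 1. For 600 mm3 against day 9 (2 called) it was 1 with quantile scaling, no filter or the stricter filter and 4 with the deposited table. For vehicle tumours of 1300 mm3 against smaller ones (8 called) it was 13 with normexp and 3 with all 20 bulk arrays in one fit. For EC resistant against vehicle (9 called) only the 2 groups compared gave 4. For sunitinib at 600 mm3 (7 called) quantile scaling, no filter and all 20 bulk arrays gave 4 each, for day 9 (0 called) normexp and the deposited table gave 1 each, for the 600 mm3 minus day 9 effect (0 called) the count was 2 with normexp and 1 with the deposited table, and for EC against bulk in vehicle mice (13 called) the deposited table gave 20.

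With the mouse number as a replicate block, over the 3 shared numbers and so without resistant mouse 1, 33 members were called for EC resistant against vehicle, 27 for EC resistant against sensitive, 0 for bulk resistant against vehicle and 0 for bulk resistant against sensitive; the block moved no other count by over 1.5 times. Same-numbered EC arrays of resistant and vehicle mice correlated at 0.101, -0.229 and 0.242, so these share only a number. With no block, 19.2% of genes were called higher and 27.1% lower for EC resistant against vehicle. The shares under the block are not given here, so the blocked counts are not read as particular to the members. For EC against bulk (34 called), the count was 32 with no replicate block and 31 with slide as a random block.

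Leaving out 1 array or mouse gave 33 to 34 for EC against bulk, 3 to 28 for EC resistant against vehicle, 3 to 23 for EC resistant against sensitive, 1 to 2 for bulk resistant against vehicle, 1 to 4 for bulk resistant against sensitive, 0 to 6 for small tumours, 1 to 7 for 600 mm3 against day 9, 5 to 13 for vehicle and 4 to 15 for sunitinib tumours of 1300 mm3 against smaller ones. No called value of a named member changed direction in the settings run, but the median over members did when 1 array was left out, for EC sensitive against vehicle (0.15, lowest -0.11), bulk resistant against sensitive (0.25, lowest -0.09) and day 9 (-0.42, highest 0.13). Of 69 called results of named members, 29 passed in each setting run. Signal over background limits Marco, Vsig4, Cd163, Cd5l, Timd4 and Retnla, and 2 arrays a group limit the small tumours.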
